A study of Mus musculus with 6 samples.

Results

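Hippo pathway output genes were examined in 6 bulk RNA-seq samples of the gastrocnemius, a predominantly fast muscle of the mouse hind leg. Chosen by gene symbol from a table of 57010 genes, the set has 8 members. It holds the coactivators Yap1 and Wwtr1 (the gene of TAZ), the DNA-binding partners Tead1 and Tead4, the muscle cofactor Vgll2, and the target genes Ccn1 (CYR61), Ccn2 (CTGF) and Amotl2. All the mice were of the immunodeficient NOD/SCID/IL2Rγ-null (NSG) strain, which lacks mature T, B and natural killer cells, and all carried a flank tumour of MDA-MB-231/Rab27a KD cells. MDA-MB-231 is a human breast cancer line, and Rab27a, a small GTPase of vesicle secretion, was knocked down in it. In the radiotherapy group (n = 3 samples) the tumour was irradiated locally, with 10 Gy given at once. The gastrocnemius contralateral to the tumour was collected 3 days afterwards, so the sampled muscle was not the irradiated site. The control group (n = 3 samples) had the same tumour without radiotherapy, and the labels do not say when its muscles were collected. The series asks what an irradiated tumour does to distant muscle, with fibrosis as the outcome of interest. Age and sex are not in the labels. Whether each sample is a mouse of its own is not in the labels either, and the p-values below rest on the spread among these 6 libraries alone. No sample analysed here came from a mouse with an unmodified tumour or with none, so tumour bearing and the knockdown are shared by both groups.

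YAP and TAZ have no DNA-binding domain and act on genes through TEAD factors, which bind a short sequence known in muscle as the MCAT element. The kinases MST and LATS, the core of the Hippo cascade, phosphorylate YAP and TAZ and hold them in the cytoplasm, so the amount of Yap1 mRNA does not measure YAP activity. VGLL proteins compete with YAP and TAZ for the same surface of TEAD, and VGLL2 is the family member of skeletal muscle. CCN1 and CCN2 are secreted matricellular proteins, and CCN2 is widely used as a readout of fibrosis.

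The target gene Ccn1 had lower values after radiotherapy and the coactivator gene Yap1 had higher ones, while the other 6 genes overlapped between the groups. Ccn1 averaged 26.5 ± 6.94 TPM in radiotherapy muscles and 45.3 ± 6.49 TPM in control muscles (SD, n = 3 each), 1.71-fold lower after radiotherapy. Yap1 averaged 13.0 ± 3.03 TPM in radiotherapy muscles and 9.56 ± 0.32 TPM in control muscles, a ratio of 1.36. TPM (transcripts per 1000000) is a length-corrected share of all transcripts, so levels can be set side by side between genes. Neither gene passed limma, a moderated linear model fitted to log2(TPM + 1) of the 11375 genes that reached 1 TPM in 3 or more samples, at a Benjamini-Hochberg adjusted p of 0.05. All 8 members were among the tested genes. Of them 0 were called, as were 0 of all tested genes (0%), and the smallest adjusted p over all genes was 0.394 (limma). At an unadjusted p under 0.05 the test gave 1 of the 8, Ccn1, against 435 of all tested genes (3.82%), or 325 (2.86%) in its direction. Groups that did not overlap were seen in 2 of the 8, against 1051 of all tested genes (9.24%).

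**Figure D1:**
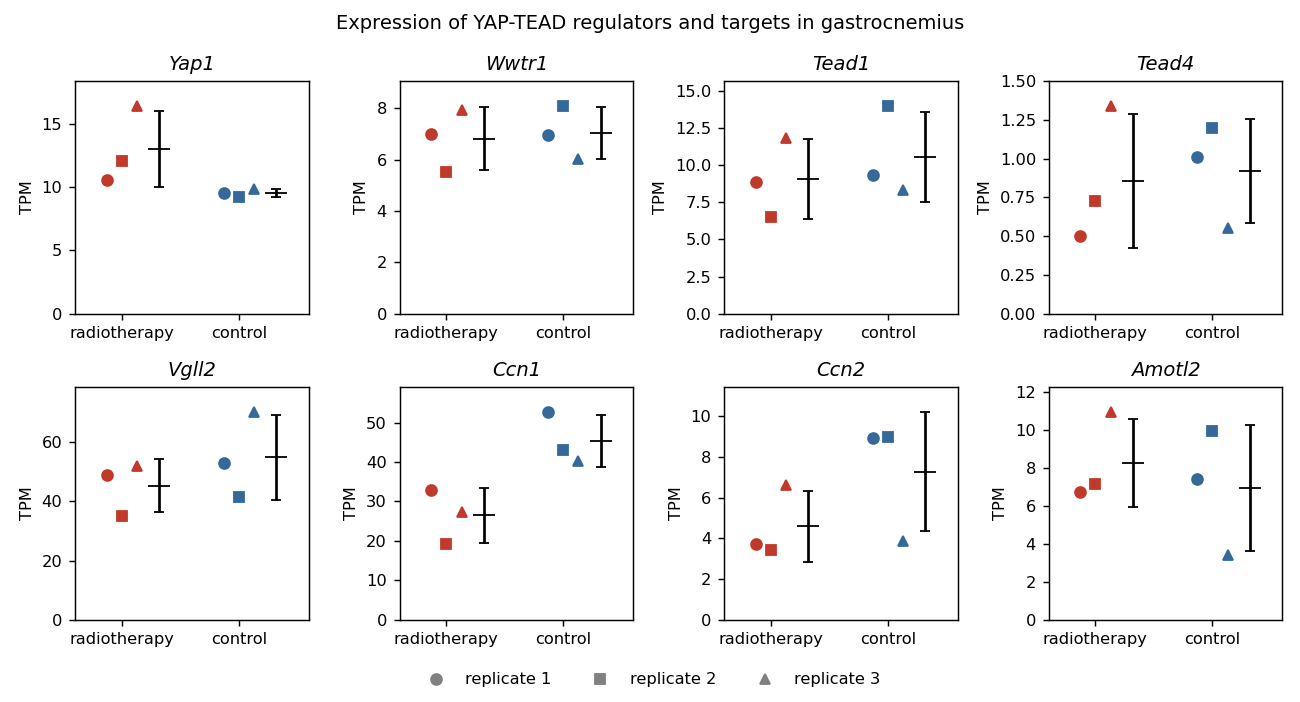
TPM of the 8 genes in each library, radiotherapy left and control right in each panel; symbols mark the replicate number, and bars give the mean and SD (n = 3). The 3 Ccn1 values after radiotherapy, at most 33.0 TPM, lie below the lowest control value of 40.4 TPM, and the 3 Yap1 values, at least 10.6 TPM, lie above the highest control value of 9.87 TPM.

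Vgll2 had the highest mean of the 8, 50.1 TPM over the 6 libraries (SD 12.0), and Ccn1 the next, 35.9 TPM (SD 12.0). Their ranges overlapped, with Vgll2 above Ccn1 in 5 of 6 libraries. Both were well above Yap1, at 11.3 TPM, the range of which did not reach that of Ccn1. Below Yap1 came Tead1 at 9.79, Amotl2 at 7.61, Wwtr1 at 6.92 and Ccn2 at 5.94 TPM, and from Yap1 to Ccn2 neighbours in this order overlapped in range. Tead4 was lowest, at 0.888 TPM (range 0.50 to 1.34), and all 6 of its values lay below the lowest Ccn2 value of 3.42 TPM.

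The start-site regions are shown for the members whose RefSeq window holds the TEAD word. Yap1 and Ccn1, which stood on opposite sides of their controls, both carry it, and so do Wwtr1 and Amotl2, whose groups overlapped. A link between the word and the expression differences was not tested. RefSeq windows of build GRCm38.p6, from 250 bases before the gene start to 50 after, matched 5 of the 8 genes (Yap1, Wwtr1, Vgll2, Ccn1 and Amotl2). The expression table was made with another build and has no coordinates. The word searched was GGAATG or its reverse complement CATTCC, the core of the MCAT element, and it is in capitals below; no other motif was searched. Wwtr1 has a second listed start that shares most of the window shown.
Yap1 (chr9:8004547-8004846, minus strand): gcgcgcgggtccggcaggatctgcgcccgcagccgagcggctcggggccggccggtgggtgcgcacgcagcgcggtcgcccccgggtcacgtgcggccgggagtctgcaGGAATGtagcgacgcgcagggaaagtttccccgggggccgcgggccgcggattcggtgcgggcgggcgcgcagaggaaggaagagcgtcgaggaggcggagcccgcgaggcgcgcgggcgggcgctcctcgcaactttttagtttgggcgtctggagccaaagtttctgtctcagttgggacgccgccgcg
Wwtr1 (chr3:57575861-57576160, minus strand): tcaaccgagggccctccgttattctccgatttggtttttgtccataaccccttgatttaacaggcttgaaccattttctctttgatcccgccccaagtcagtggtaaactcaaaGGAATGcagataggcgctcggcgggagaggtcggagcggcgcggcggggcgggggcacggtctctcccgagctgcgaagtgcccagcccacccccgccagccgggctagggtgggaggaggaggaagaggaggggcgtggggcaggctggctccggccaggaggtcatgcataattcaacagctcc
Ccn1 (chr3:145649936-145650235, minus strand): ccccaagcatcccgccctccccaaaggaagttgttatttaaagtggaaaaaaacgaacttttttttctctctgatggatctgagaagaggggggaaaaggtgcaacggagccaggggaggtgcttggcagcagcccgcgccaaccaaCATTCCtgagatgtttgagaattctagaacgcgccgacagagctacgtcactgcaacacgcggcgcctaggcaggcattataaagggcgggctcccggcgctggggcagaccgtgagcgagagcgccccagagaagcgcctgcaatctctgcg
Amotl2 (chr9:102717554-102717853, plus strand): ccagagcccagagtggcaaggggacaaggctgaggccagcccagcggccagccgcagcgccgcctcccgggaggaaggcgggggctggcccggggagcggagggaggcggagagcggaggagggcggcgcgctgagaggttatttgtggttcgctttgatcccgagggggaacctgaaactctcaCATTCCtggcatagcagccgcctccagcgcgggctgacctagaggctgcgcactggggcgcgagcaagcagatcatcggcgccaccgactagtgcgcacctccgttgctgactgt
The word occurred once in each of these 4 windows and in none of the letters of the Vgll2 window. It began 141 bases before the start of Yap1 and 136 before that of Wwtr1, in both as GGAATG. In Ccn1 it began 103 bases before the start and in Amotl2 65 bases before it, in both as CATTCC. Of all 27025 genes with such a window, 4481 (16.6%) hold the word on either strand. A match describes letters and does not show that a TEAD protein binds there in muscle.

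Among the coactivators, Yap1 (ENSMUSG00000053110) was at 10.6, 12.1 and 16.4 TPM in radiotherapy muscles 1, 2 and 3, against 9.58, 9.23 and 9.87 TPM in control muscles 1, 2 and 3. Every radiotherapy value was above every control value, and the spread lay on the radiotherapy side, with muscle 3 farthest out by TPM. Median-of-ratios scaling lines up the bulk of the genes between libraries. After it radiotherapy muscle 2 was farthest out, at 15.45 beside 13.7 for muscle 3. The log2 fold change, radiotherapy minus control on the log2(TPM + 1) scale, was 0.39 (SE 0.24, 95% interval −0.16 to 0.94; limma, unadjusted p = 0.143, adjusted p = 0.977). Without radiotherapy muscle 3 the log2 fold change was 0.22. A separation upwards was seen in 193 of the tested genes (1.7%) and in 1 of the 8 members. Wwtr1, which encodes the YAP paralogue TAZ (ENSMUSG00000027803), was at 7, 5.50 and 7.93 TPM in radiotherapy muscles, against 6.97, 8.09 and 6.04 TPM in control muscles. These groups overlapped throughout, and the log2 fold change was −0.05 (95% interval −0.59 to 0.50). Yap1 made up 60.25, 68.7 and 67.5% of the summed TPM of both coactivators in radiotherapy muscles 1, 2 and 3, and 57.9, 53.3 and 62.0% in control muscles. That share does not depend on the scaling of a library, and control muscle 3 lay above radiotherapy muscle 1, so the groups overlapped.

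Both TEAD members overlapped between the groups. Tead1, the TEAD with the highest mean level here (ENSMUSG00000055320), was at 8.84, 6.50 and 11.8 TPM in radiotherapy muscles and 9.30, 14.0 and 8.29 TPM in control muscles (log2 fold change −0.20, 95% interval −0.86 to 0.47). Tead4, a TEAD known for its role in myoblast differentiation (ENSMUSG00000030353), was at 0.50, 0.73 and 1.34 TPM in radiotherapy muscles, against 1.01, 1.2 and 0.55 TPM in control muscles. It passed the expression filter with exactly 3 libraries at 1 TPM or more, and its log2 fold change was −0.06 (95% interval −0.59 to 0.47). Tead1 held 63.1, 47.7 and 62.3% of the summed TPM of the 4 TEAD genes in radiotherapy muscles, and 69.8, 71.55 and 55.6% in control muscles. Tead3 was the next in the family on average, at 3.45, 5.06 and 3.72 TPM in radiotherapy muscles and 1.54, 2.71 and 3.92 TPM in control muscles (log2 fold change 0.49, SE 0.29; limma adjusted p = 0.977). Only control muscle 3 kept the Tead3 groups from parting. Tead2 gave −0.12 (SE 0.22).

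By TPM, Tead1 and Wwtr1 ordered the 6 libraries almost alike. For both genes control muscle 2 was highest, radiotherapy muscle 3 next, control muscle 3 next to lowest and radiotherapy muscle 2 lowest. The remaining pair, radiotherapy muscle 1 and control muscle 1, changed places between the genes. Yap1 had another order, with radiotherapy muscle 2 next to highest and control muscle 2 lowest. The likeness of Tead1 and Wwtr1 depended on the scaling. After median-of-ratios scaling radiotherapy muscle 3 was next to highest for Tead1, at 9.89, and next to lowest for Wwtr1, at 6.63.

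Vgll2, the muscle TEAD cofactor (ENSMUSG00000049641), was at 48.9, 35.2 and 52.0 TPM in radiotherapy muscles, against 53.1, 41.4 and 70.2 TPM in control muscles. The groups overlapped, with control muscle 3 highest and radiotherapy muscle 2 lowest, and the log2 fold change was −0.26 (SE 0.28, 95% interval −0.88 to 0.37; limma adjusted p = 0.977). Vgll2 supplied 80.6 to 90.1% of the summed TPM of the VGLL genes in every library. Vgll4, a repressor of TEAD-driven transcription, was at 5.94 ± 2.53 TPM in radiotherapy muscles and 7.69 ± 1.45 TPM in control muscles (log2 fold change −0.38, SE 0.32). Vgll3 stayed under 1 TPM in all 6 libraries, and Vgll1 was listed at 0 in all of them.

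**Figure D2:**
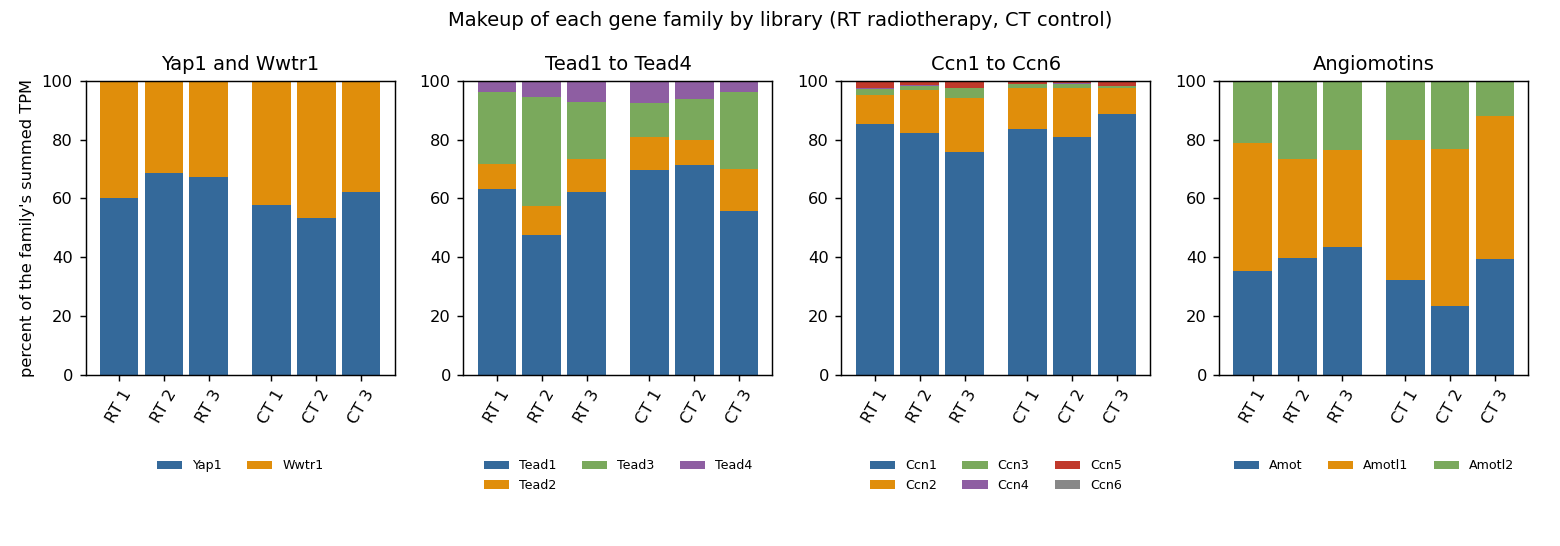
Share of each gene in the summed TPM of its family, in percent, by library, with radiotherapy (RT) bars left of control (CT) bars. Tead1, Ccn1 and Yap1 supply the largest part of their families in every library, and in the angiomotin panel Amotl1 takes at most 43.7% in radiotherapy libraries and at least 47.8% in control libraries.

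The CCN genes had the lowest log2 fold changes of the 8. Ccn1, an early-responding target of YAP and of serum response factor, SRF (ENSMUSG00000028195), was at 33.0, 19.2 and 27.2 TPM in radiotherapy muscles 1, 2 and 3, against 52.7, 42.9 and 40.4 TPM in control muscles 1, 2 and 3. The groups did not overlap and radiotherapy was the lower one, with control muscle 1 highest and radiotherapy muscle 2 lowest. The log2 fold change was −0.78 (SE 0.27, 95% interval −1.38 to −0.18; limma, unadjusted p = 0.0170, adjusted p = 0.977). By unadjusted p it ranked 118 of 11375, and its log2 fold change stood at percentile 2.13 of all tested genes. Such a separation downwards was seen in 858 tested genes (7.54%) and in 1 of the 8 members. Ccn2, the fibrosis-linked CCN gene and also a target of TGF-β (ENSMUSG00000019997), was at 3.73, 3.42 and 6.62 TPM in radiotherapy muscles, against 8.95, 9 and 3.90 TPM in control muscles. Control muscle 3 lay among the radiotherapy values, and the log2 fold change was −0.54 (SE 0.35, 95% interval −1.33 to 0.25; limma, unadjusted p = 0.158, adjusted p = 0.977). Without that library the log2 fold change was −0.88 (limma, unadjusted p = 0.0230, adjusted p = 0.9997). Of 16 alternative settings it was the only 1 with an unadjusted p under 0.05 for Ccn2. With single libraries left out the log2 fold change ran from −0.88 to −0.37. The value was −0.37 both without control muscle 1 (limma, unadjusted p = 0.359) and without control muscle 2 (unadjusted p = 0.392).

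Ccn1 supplied 75.7 to 88.9% of the summed TPM of the 6 CCN genes, and Ccn2 8.59 to 18.4%. The summed CCN level was 32.6 ± 8.18 TPM in radiotherapy muscles and 53.9 ± 8.85 TPM in control muscles. Ccn3, Ccn4, Ccn5 and Ccn6 were all below the filter, together 0.72 to 2.13 TPM in radiotherapy libraries and 1.14 to 1.44 TPM in control libraries. Ccn6 was listed at 0 in the 3 radiotherapy libraries and in control 1, so no direction is given for it.

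Amotl2 (ENSMUSG00000032531) encodes an angiomotin, a YAP-binding junction protein whose gene is itself a YAP target. Its TPM was 6.71, 7.16 and 10.9 in radiotherapy muscles and 7.43, 9.97 and 3.43 in control muscles. The groups overlapped, with the lowest value in control muscle 3 and the highest in radiotherapy muscle 3. The log2 fold change was 0.29 (SE 0.36, 95% interval −0.52 to 1.10; limma adjusted p = 0.979). Without control muscle 3 it was −0.081, so its sign rests on that library. Its paralogue Amotl1 was at 13.9, 9.05 and 15.2 TPM in radiotherapy muscles and 17.8, 23.1 and 14.2 TPM in control muscles (log2 fold change −0.50, SE 0.28; limma adjusted p = 0.977). The share of Amotl1 in the summed TPM of the 3 angiomotin genes was 43.7, 33.6 and 32.8% in radiotherapy muscles and 47.8, 53.4 and 48.9% in control muscles, so the shares did not overlap; this measure was picked after its values were seen and was not tested.

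**Figure D3:**
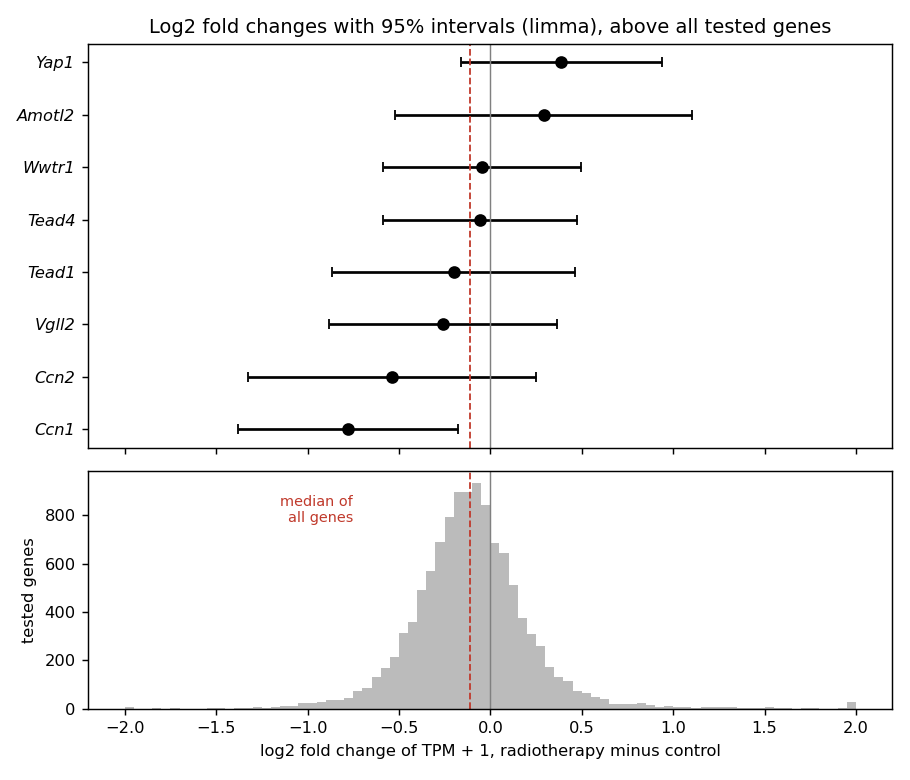
Log2 fold change of each gene with its 95% interval from limma (upper panel) over the histogram of all 11375 tested genes (lower panel, values beyond 2 in either direction drawn in the end bins); the dashed line is the median of all genes, −0.11. The interval of Ccn1 alone among the 8 leaves out 0.

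Across the 8, 6 log2 fold changes were negative, against 67.9% of all tested genes. The median of the 8 was −0.13, beside −0.11 for all tested genes. The median of all tested genes was −0.0014 after median-of-ratios scaling, which lines up the bulk of the genes between libraries. On that scale Yap1 was at 11.4, 15.4 and 13.7 in radiotherapy muscles and 9.19, 8.82 and 9.18 in control muscles, and its log2 fold change was 0.52 (SE 0.16; limma, unadjusted p = 0.0139, adjusted p = 0.824). The Ccn1 values were then 35.4, 24.6 and 22.8 in radiotherapy muscles, against 50.5, 41.0 and 37.5 in control muscles (log2 fold change −0.64, SE 0.22; limma, unadjusted p = 0.0211, adjusted p = 0.824). Both genes again had no overlap between groups, a state of 585 tested genes in the direction of Yap1 (5.14%) and 630 in that of Ccn1 (5.54%).

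Radiotherapy muscle 2 had the lowest TPM for 5 of the 8 genes (Wwtr1, Tead1, Vgll2, Ccn1 and Ccn2). After median-of-ratios scaling the lowest values of these 5 genes lay in other libraries. Control muscle 3 was then lowest for Wwtr1, Tead1 and Ccn2, control muscle 2 for Vgll2 and radiotherapy muscle 3 for Ccn1. Radiotherapy muscle 2 was also the library farthest out on the first principal component, at 53.6, which held 30.6% of the variance. Control muscle 3 was farthest out on its other side, at −34.7. The largest mitochondrial share of TPM, 22.5%, was that of radiotherapy muscle 2. Without it the log2 fold changes of Ccn1 and Yap1 were −0.57 and 0.43. Without control muscle 1 that of Ccn1 was −0.67 (limma, unadjusted p = 0.0698). Without both radiotherapy muscle 2 and control muscle 1, the library richest in macrophage and leukocyte markers, they were −0.46 (limma, unadjusted p = 0.137) and 0.43 (unadjusted p = 0.217); this choice was made after the data were seen.

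Upstream of the members, of 17 listed genes of the kinase cascade, 15 were tested, 0 were called, and none had an unadjusted p under 0.05. Their log2 fold changes ran from −0.24 to 0.26, with 4 positive and 11 negative and a median of −0.07. Those of smallest p were the kinase Map4k4 at 0.26 (SE 0.27), the tumour suppressor Nf2 at −0.24 (SE 0.27), the MST scaffold Sav1 at −0.22 (SE 0.28) and the kinase Taok2 at 0.17 (SE 0.25). Lats2, one of the LATS kinases, which inactivate YAP and TAZ directly, is named here outside the rule of smallest p and was at 3.79 ± 0.909 TPM in radiotherapy muscles and 4.47 ± 1.54 TPM in control muscles. Among 9 tested angiomotins and other YAP binders 0 were called and the median was −0.17. They were led by Amotl1, followed by the phosphatase Ptpn14 at −0.32 (SE 0.21), the polarity protein Dlg5 at 0.39 (SE 0.27) and the LIM protein Limd1 at −0.23 (SE 0.25).

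Other targets of YAP and TAZ lay on both sides of 0. A published pan-cancer target signature, taken without the members, had 19 genes, of which 14 were tested and 0 called, with none at an unadjusted p under 0.05. Their median was −0.07, with 5 positive and 9 negative, and it was 0.05 after median-of-ratios scaling and 0.01 after quantile normalization, so its sign depends on the scaling. F3, the gene of tissue factor, was at 3.25, 0.68 and 3.16 TPM in radiotherapy muscles, against 1.13, 0.97 and 0.24 TPM in control muscles (log2 fold change 0.84, SE 0.38; limma adjusted p = 0.977). Arhgef17 was at 3.18, 2.06 and 3.31 TPM in radiotherapy muscles, against 3.56, 4.69 and 4.59 TPM in control muscles, without overlap (−0.47, SE 0.24). The ectonucleotidase gene Nt5e gave −0.51 (SE 0.26) and the ligand gene Tgfb2 −0.46 (SE 0.25). Ankrd1, a stretch-induced target gene of striated muscle named here after its values were seen, was at 30.1, 17.0 and 17.2 TPM in radiotherapy muscles and 12.1, 11.1 and 18.9 TPM in control muscles (0.56, SE 0.31).

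**Figure D4:**
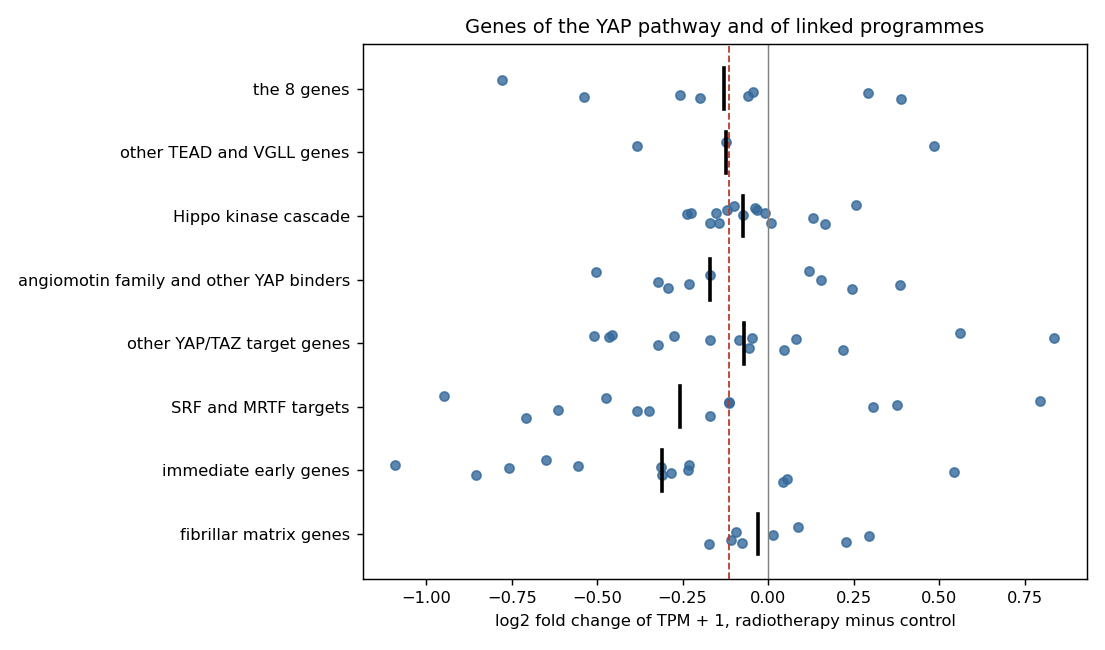
Log2 fold changes of the tested genes in the 8 genes and in 7 pathway and programme lists (points) with the list median (black bar); the dashed line is the median of all tested genes, −0.11. Among the rows drawn, the immediate early genes have the lowest median, −0.31, and the other YAP/TAZ targets lie on both sides, from −0.51 to 0.84. After quantile normalization, not drawn, the SRF and MRTF median is −0.18 and that of the immediate early genes −0.14.

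Ccn1 is also driven by SRF with its cofactor MRTF, and it belongs to the immediate early genes. Of 12 SRF and MRTF genes 0 were called. At an unadjusted p under 0.05 (limma) 1 was higher and 2 were lower, against 0.967% and 2.86% of all tested genes. The median of the 12 was −0.26, with 3 positive and 9 negative. Srf itself was at 11.1, 6.53 and 18.2 TPM in radiotherapy muscles, against 25.65, 18.9 and 22.8 TPM in control muscles, without overlap (log2 fold change −0.95, SE 0.35; limma adjusted p = 0.977). Cnn1, the smooth muscle calponin, was at 3.58, 2.27 and 2.49 TPM in radiotherapy muscles, above the 1.40, 1.47 and 0.69 TPM of control muscles (0.79, SE 0.24), while the tropomyosin gene Tpm1 gave −0.71 (SE 0.26) and the focal adhesion gene Zyx −0.61 (SE 0.38). Among 13 tested immediate early genes 0 were called and 10 were negative, against 67.9% negative among all tested genes. Their median was −0.31, and −0.17 after median-of-ratios scaling. Those of smallest p were Ier3 at −0.65 (SE 0.36), Atf3 at −0.76 (SE 0.48), Nr4a1 at −0.85 (SE 0.69) and Btg2 at −0.31 (SE 0.29). The summed level of the immediate early list was 337, 179 and 269 TPM in radiotherapy muscles 1, 2 and 3, against 683, 508 and 177 TPM in control muscles. These sums overlapped between the groups, and control muscle 3 and radiotherapy muscle 2 had the lowest. The part of these genes in the Ccn1 difference was not tested.

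The fibrillar matrix genes, which CCN2 is known to accompany in fibrosis, gave a median of −0.03 over 8 tested genes with 0 called and none at an unadjusted p under 0.05. Periostin (Postn) gave 0.29 (SE 0.47), the crosslinking enzyme Lox 0.23 (SE 0.42), Col1a1 −0.17 (SE 0.50) and Col5a1 −0.09 (SE 0.33). The summed level of the list was 98.3, 74.7 and 159 TPM in radiotherapy muscles, against 191, 102 and 60.2 TPM in control muscles. The order of the control libraries for matrix was that of their Ccn1 values, but radiotherapy muscle 3, second in matrix, had less Ccn1 than any control.

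Genes whose pattern over the 6 libraries was most like that of Ccn2 and of Yap1 were looked up among named genes averaging at least 5 TPM. Over these 6 points, which share the 2 groups and the scaling of each library, Pearson's r with Ccn2 was 0.986 for the cyclin-like gene Ccnyl1 (Spearman's rank correlation 0.943), 0.983 for the actin-assembly gene Vasp (rank correlation 0.886) and 0.981 for the phosphatase subunit gene Ppp4r1 (rank correlation 1.00). With Yap1 it was 0.981 for the mitochondrial DNA-binding gene Ssbp1 (rank correlation 0.943), 0.978 for the nucleolar GTPase gene Gnl2 (rank correlation 0.943) and 0.968 for Ankrd10 (rank correlation 0.829). Of 6315 genes compared, 73 with Ccn2 and 64 with Yap1 had r above 0.9, and none of the 6 named was another member.

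Markers of muscle fibres and of other cells differed between the groups in part. The fast muscle genes Acta1, Ckm and Myh4 were high in all 6 libraries, with Acta1 at 6647 to 15355 TPM in radiotherapy libraries and 19091 to 23091 TPM in control libraries. Of 8 fast fibre markers 6 separated downwards without overlap, against 7.54% of all tested genes, while the fast myosin gene Myh1 had a log2 fold change of 0.54, and the sum of the 8 was 66724 to 109320 TPM in radiotherapy libraries and 129980 to 137290 TPM in control libraries. The 7 tendon markers summed to 12.2 to 17.6 TPM in radiotherapy libraries and 20.2 to 42.7 TPM in control libraries, with Kera listed at 0 in radiotherapy 3. The 5 red blood cell markers summed to 930 to 1618 TPM in radiotherapy libraries and 3352 to 7203 TPM in control libraries. Mitochondrial transcripts took 15.1 to 22.5% of TPM in radiotherapy libraries and 8.93 to 13.7% in control libraries. These measures parted the groups as Ccn1 and Yap1 did, and their part in either result was not tested. Endothelial markers, from cells known to express Ccn1, overlapped, with sums of 210 to 290 TPM in radiotherapy libraries and 176 to 265 TPM in control libraries. Sums also overlapped for 10 fibroblast and progenitor markers (410 to 568 TPM in radiotherapy and 401 to 909 TPM in control libraries), 10 smooth muscle and pericyte markers (151 to 196 TPM in radiotherapy and 115 to 178 TPM in control libraries), 8 slow fibre markers, 8 satellite cell markers and 11 macrophage and leukocyte markers. Of all these markers, none was listed at 0 in all 6 libraries. By gene, 7 of the 8 slow fibre markers had positive log2 fold changes (median 0.31) and 7 of the 8 fast ones negative (median −0.50). All 9 tested macrophage and leukocyte markers were negative, against 67.9% of all tested genes. At an unadjusted p under 0.05 (limma) stood 5 of the 8 fast fibre, 3 of 3 tested tendon and 5 of 5 red blood cell markers. All of these were lower after radiotherapy, against 2.86% of all tested genes in that direction. Of the smooth muscle and pericyte markers 1 was higher, against 0.967% of all tested genes. At that level stood 0 of the slow fibre, macrophage and leukocyte, endothelial, fibroblast and progenitor, and satellite cell markers. In a bulk sample, fewer cells of a type and less RNA per cell cannot be told apart.

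**Figure D5:**
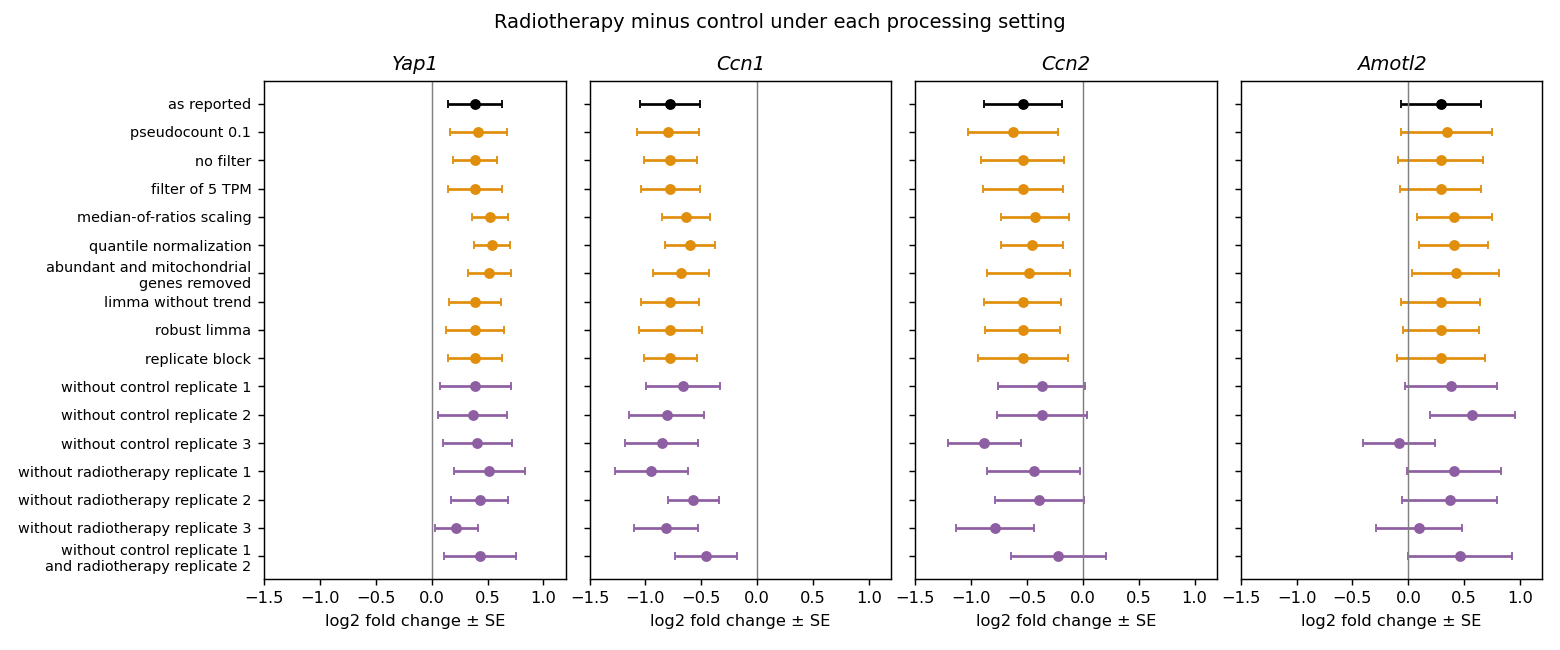
Log2 fold change of Yap1, Ccn1, Ccn2 and Amotl2, radiotherapy minus control, with its SE under each processing setting; orange points change the processing, purple points leave out libraries. Yap1 stays positive and Ccn1 and Ccn2 stay negative under all 16 alternatives, while Amotl2 turns to −0.081 without control 3.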

How the data were processed

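RNA-seq libraries of 6 gastrocnemius samples were prepared by a TruSeq RNA protocol, per the labels. What the authors deposited is a single table of TPM, a column for each sample. The submitters' processing notes name HISAT2, StringTie, RSEM and build mm9. Tool versions, the annotation and the use of strand are not stated. Each column summed to 1000000 TPM within 1, so depth was unknown, and no counting interval could be given. TPM is relative: where abundant transcripts take more, the rest get less.

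Tests ran on log2(TPM + 1), a pseudocount of 1 that understates the fold changes of low genes. The 11375 genes that reached 1 TPM in 3 or more samples were tested two-sided with limma 3.58.1 (R 4.3.3), with group as the only term and variances moderated towards a trend in mean level, and with Benjamini-Hochberg adjustment over all of them and a threshold of 0.05. The script was tested on simulated data. No 2 libraries were the same: the closest pair shared 3.35% of its nonzero values, compared as printed in the table. The members and the 17 gene lists were chosen with earlier results of these data known. Named genes were all 8 members, up to 4 tested genes of smallest unadjusted p per pathway list, tissue checks, and the 3 genes of highest r with Ccn2 and with Yap1. Lats2, Ankrd1 and Myh1 are named outside this rule. Cell type lists were given by their counts and sums; Lats2 and Ptpn14 are each in 2 pathway lists, and Acta2, Tagln and Cnn1 are in both the SRF and the smooth muscle lists. Alternatives were other pseudocounts (0.1) and filters (none, 5 TPM), 3 other scalings, limma without trend, robust limma, the replicate number as a block, and each sample left out in turn. Leaving out control 1 and radiotherapy 2 together was added after the data were seen. Promoter windows came from RefSeq, build GRCm38.p6. Plots used matplotlib 3.10.9 (Python 3.11.15).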

Additional observations from a re-analysis of the deposited data

How the results depend on the processing

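None of the 8 genes was called by limma under any of the 16 alternatives, and Yap1, Vgll2, Ccn1 and Ccn2 kept their direction under all of them. At an unadjusted p under 0.05 stood Ccn1 under 14 of the 16 (not without control 1, nor without control 1 and radiotherapy 2 together), Yap1 under 3 (the other scalings) and Ccn2 under 1. Wwtr1 turned positive, to 0.078 with median-of-ratios scaling, 0.075 with quantile normalization and 0.057 with the 50 most abundant and the mitochondrial genes removed. With single libraries left out, log2 fold changes ran from −0.95 to −0.57 for Ccn1, from −0.88 to −0.37 for Ccn2, from 0.22 to 0.52 for Yap1, from −0.15 to 0.081 for Wwtr1, from −0.39 to 0.0055 for Tead1, from −0.24 to 0.083 for Tead4, from −0.44 to −0.07 for Vgll2 and from −0.081 to 0.57 for Amotl2. Yap1 was lowest without radiotherapy 3, Ccn2 farthest from 0 without control 3, and Amotl2 changed sign without control 3, Wwtr1 without control 2 or radiotherapy 2, Tead1 without control 2, and Tead4 without control 2 or radiotherapy 1. Over all tested genes the count of calls was 0, and 0 to 1 with single libraries left out; the call was Gm55635 without control 1 and Gm24497 without radiotherapy 1. Without control 1 and radiotherapy 2 together it was 8, none of them a member, and Wwtr1 and Tead4 stood at 0.079 and 0.02. With the replicate number as a block 0 genes and 0 members were called. Deviations of same-numbered samples had r of −0.06, 0.02 and −0.11 across genes for numbers 1, 2 and 3. Differently numbered samples gave r from −0.125 to 0.171, so this check cannot decide whether samples are paired. The labels state no pairing, and the numbers were not taken to pair the samples. The cause of these changes was not tested. Tead4 was not tested with the 5 TPM filter. Depth is unknown, so the precision of low genes such as Tead4 cannot be given.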
